A study of Mus musculus with 12 samples.

Results

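The IL-17 response of mouse embryonic fibroblasts was compared between cells that kept the RNA-binding protein IMP2 and cells depleted of it. For each gene the change with IL-17 in IMP2-depleted cells was set against the change with IL-17 in control cells, once as a log2 fold change and once as an absolute gain in counts scaled to library size (CPM). All 12 of the 12 libraries entered, and 13702 of 48709 annotated genes had enough counts to be tested. The cells were wild-type C57BL/6 fibroblasts from E12.5–13.5 embryos, transfected with a control siRNA (siControl) or an siRNA against IMP2 (siIMP2). At 24 hours they either stayed without stimulus or were given IL-17 at 200 ng/mL for 8 hours (siControl_IL17 and siIMP2_IL17). Each of the 4 groups had 3 libraries, replicates 1 and 2 from titles that begin with NA and replicate 3 from a title that begins with RB160, and this title set was a term in every model. The number of embryos or cultures behind a group is not stated in the labels. The p-values therefore rest on the spread among the sequenced libraries alone, and that spread may be technical. In bulk RNA, fewer cells of a type and less RNA per cell cannot be told apart.

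IL-17 binds a receptor of the subunits IL-17RA and IL-17RC, which recruit the adaptor ACT1 (gene Traf3ip2) and TRAF6 and activate NF-kB. In fibroblasts this induces chemokines, IL-6 and acute-phase genes, with C/EBP-beta, C/EBP-delta and the nuclear co-activator IkB-zeta (gene Nfkbiz) as further steps, and the pathway is known to lengthen the life of short-lived inflammatory mRNAs. IMP2, encoded by Igf2bp2, is a reader of N6-methyladenosine that binds mRNAs and affects their stability and translation. A response can be equal on the log2 scale and unequal as a gain: where a gene starts lower, the same fold adds fewer transcripts. Both scales are therefore given, and a log2 difference above 0 means a larger fold with siIMP2 while a CPM difference below 0 means a smaller gain with siIMP2.

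Total counts ranged from 33841054 to 44433699 per library, so 1 CPM after TMM scaling stood for 31.9 to 50.9 reads. The fibroblast markers summed to between 16976 and 24542 CPM in all libraries, but single members moved apart. Without IL-17, Dcn, Lum and Pdgfra stood in siIMP2 at 18.7%, 20.3% and 22.0% of their siControl levels. Col1a1, S100a4 and Vim stood at 125%, 100% and 98.5%. Of 13 macrophage and leukocyte markers 6 were at 0 in every library, Adgre1 and Cd3e among them, while Cd14, Cd68 and Csf1r were measured and the list summed to 8.16 to 16.0 CPM. The skeletal muscle list had Myod1, Myf5 and Pax7 at 0 but moved with the groups, mostly through the muscle actin gene Acta1. It summed to 32.7 to 50.5 CPM in siControl, 16.0 to 33.7 in siControl_IL17, 90.8 to 252 in siIMP2 and 53.5 to 204 in siIMP2_IL17. Other lists differed between the title sets: adipocyte markers, with Adipoq and Lep at 0, stood at 2.58 to 5.24 CPM in NA and 10.5 to 40.3 in RB160, and chondrocyte and osteoblast markers at 176 to 236 and 372 to 699.6 CPM. Neural markers stood at 892 to 954 CPM in NA and 319 to 434 in RB160, and epithelial markers at 84.1 to 207 and 38.0 to 69.2 CPM. Some of these lists also differed between the siRNAs within each set. Without IL-17, epithelial markers stood in NA at 125 and 114 CPM with siControl and at 186 and 207 with siIMP2. In RB160 they stood at 41.7 and 69.2 CPM. Chondrocyte and osteoblast markers stood in NA at 224 and 225 CPM with siControl and at 178 and 178 with siIMP2. In RB160 they stood at 619 and 372 CPM. The adipocyte list stood lowest in siIMP2_IL17 in both sets, at 2.58 and 2.79 CPM in NA and 10.5 CPM in RB160. The part of these markers in the results was not tested. The siRNA target, Igf2bp2, was measured at 167, 146 and 134 CPM in siControl and at 166, 156 and 139 CPM in siControl_IL17. It was measured at 22.3, 18.6 and 24.6 CPM in siIMP2 and at 24.3, 18.4 and 28.2 CPM in siIMP2_IL17. The siControl and siIMP2 libraries did not overlap, and the log2 difference of the IL-17 responses of Igf2bp2 was 0.07 ± 0.20 (SE, n = 3 per group).

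Depletion of IMP2 changed the fold response to IL-17 of no gene past the threshold. Of 13702 genes 0 (0%) had a called log2 difference of the responses, by the quasi-likelihood test of edgeR at a Benjamini-Hochberg adjusted p of 0.05. At an unadjusted p below 0.05 there were 152 genes (1.11%), 91 with a larger and 61 with a smaller log2 response in siIMP2 cells, and 14 of these also responded to IL-17 on average. DESeq2, limma-voom and edgeR's robust fit also called 0 genes, with 71, 167 and 141 genes at an unadjusted p below 0.05. Between the title sets the log2 difference itself differed for 1 gene (0.0073%), with 259 (1.89%) at an unadjusted p below 0.05. As an absolute gain 1 gene (0.0073%) was called, the chemokine gene Cxcl1, by limma on TMM-scaled CPM with the same adjustment. At an unadjusted p below 0.05 there were 171 genes (1.25%) for the CPM difference. On both scales this share lay below the 0.05 of genes that a calibrated test gives when no gene differs. Both tests thus ran conservative here, and neither count was an excess.

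The absence of calls on the log2 scale came with intervals from the same fit, whose coverage was not tested. The 95% interval of the log2 difference lay within 1 on either side of 0, so excluded a 2-fold difference, for 11518 of 13702 genes (84.1%). Precision followed abundance: this held for 99.8% of the 4602 genes with a mean log2 CPM of 4 to 6, where the median SE was 0.10, and for 8.11% of the 1911 genes below a mean log2 CPM of 0, where the median SE was 0.54. Several IL-17 targets lay above the median SE of genes of their abundance, as the plot of SE against abundance shows. Cxcl1 had an SE of 0.31, Ccl2 of 0.42, Il6 of 0.61 and Lcn2 of 1.03. For these genes a moderate difference of the fold responses was not detectable with 3 libraries per group.

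**Figure D1:**
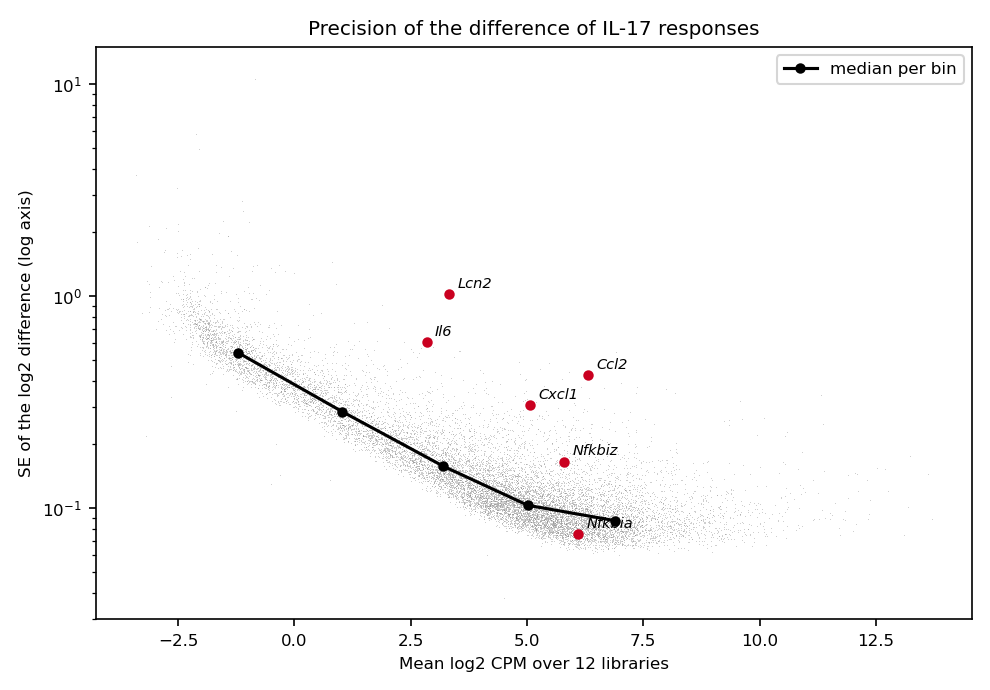
Standard error of the log2 difference of IL-17 responses (log axis) against mean log2 CPM over 12 libraries, 1 grey point per gene for 13702 genes, with the median of 5 abundance bins in black and 6 IL-17 target genes in red. Nfkbia lies near the median of its abundance, while Cxcl1, Ccl2, Il6 and Lcn2 lie above it.

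Cxcl1, which encodes a neutrophil-attracting chemokine and lies on the plus strand at chr5:90891241-90893115 (mm10), was the gene with a called difference of gains. It stood at 39.3, 34.1 and 23.5 CPM in siControl and at 201, 189 and 220 CPM in siControl_IL17. In siIMP2 it stood at 5.23, 4.20 and 4.80 CPM, and in siIMP2_IL17 at 43.0, 29.0 and 53.9 CPM. With IL-17, the IMP2-depleted libraries thus overlapped the unstimulated siControl libraries in the NA set. In the RB160 set the stimulated siIMP2 library lay above the unstimulated siControl library (53.9 against 23.5 CPM). All stimulated siIMP2 libraries stayed below every stimulated siControl library. The gain was 171 CPM with siControl and 37.2 CPM with siIMP2, or 21.8% of the control gain, a difference of -134 ± 10.8 CPM (SE, n = 3 per group, 95% interval -158 to -110, limma adjusted p = 0.0053). The difference was -127 CPM within the NA set and -148 CPM within the RB160 set. On the log2 scale Cxcl1 rose by 2.65 ± 0.20 with siControl and by 3.15 ± 0.24 with siIMP2, a difference of 0.50 ± 0.31 (95% interval -0.17 to 1.16, edgeR adjusted p = 1.00). The authors' deposited table gives log2 responses of 2.66 and 3.15 for the same pair of comparisons. The call of the gain was lost without siIMP2 replicate 1 (limma adjusted p = 0.0505, difference -133 CPM) and without siIMP2 replicate 2 (0.0502, -133 CPM). It was also lost when CPM were scaled by the library total alone (0.143, -142 CPM), without limma's trend (0.0559, -134 CPM) and with weights for the count variance (1.00, -133 CPM).

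The monocyte chemokine genes Ccl2 and Ccl7 also had a smaller CPM gain with siIMP2, without a call. Ccl2 stood at 119, 112 and 53.3 CPM in siControl and at 325, 314 and 184 CPM in siControl_IL17. In siIMP2 it stood at 23.3, 15.1 and 24.4 CPM, and in siIMP2_IL17 at 82.1, 63.1 and 112 CPM. The siIMP2 libraries lay below the siControl libraries of the same stimulus throughout. The gain with siIMP2 was 36.1% of the gain with siControl, a difference of -115 ± 41.7 CPM (limma adjusted p = 1.00), with -150 CPM within NA and -43.3 CPM within RB160. Its log2 response was 1.54 with siControl and 2.04 with siIMP2. Ccl7 had log2 responses of 1.39 and 1.98 and a gain with siIMP2 of 41.7% of that with siControl. For Ccl20, which attracts CCR6-bearing lymphocytes, the values ran the other way: group means were 0.354 and 0.990 CPM with siControl and 0.341 and 1.82 CPM with siIMP2, a difference of gains of 0.838 ± 0.441 CPM (limma adjusted p = 1.00). Cxcl5, another neutrophil attractant, had 6 counts over the siControl libraries and 132 over the siControl_IL17 libraries, but 0 over the siIMP2 libraries and 8 over the siIMP2_IL17 libraries. That is a 20.1-fold difference with siControl and at least 2.68-fold with siIMP2, taking 3 counts over the group as the floor for counting error. The gain of Cxcl5 with siIMP2 was 7.32% of that with siControl. Its difference of gains was -0.921 CPM (limma unadjusted p = 8e-05), which was not called and rests on these few counts. Of 32 chemokine genes 17 were measured, 6 rose with IL-17 on average (against 1.31% of all genes tested) and 0 fell. This list and those below were chosen with earlier results of these data known, so a share above 1.31% is description and no evidence. Leaving out Cxcl5, the log2 difference was above 0 for 11 of 16. The median log2 difference was 0.18, or 0.10 with Cxcl5 at its bound, against -0.00 over all genes tested. The interval of the log2 difference lay within 1 for only 5 of the 17, against 84.1% of all genes tested. For the others a 2-fold difference was not excluded.

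**Figure D2:**
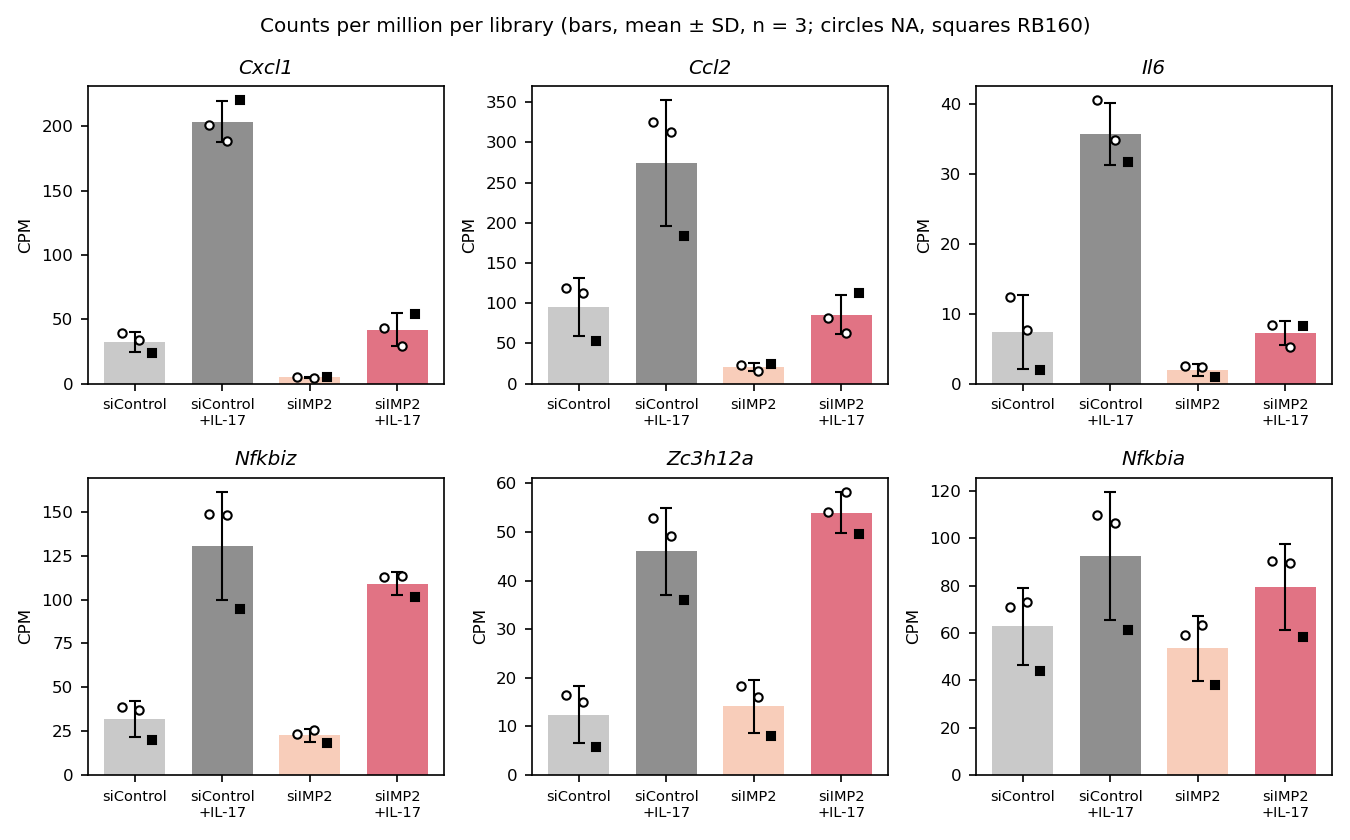
CPM of 6 genes in each library, with bars for the mean of a group, error bars for the SD (n = 3), circles for NA libraries and squares for the RB160 library. Cxcl1, Ccl2 and Il6 start lower with siIMP2 and end lower with IL-17, while Nfkbiz, Zc3h12a and Nfkbia have siIMP2_IL17 means of 109, 54.0 and 79.3 CPM beside siControl_IL17 means of 131, 46.0 and 92.5 CPM.

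Il6, the gene of the cytokine interleukin-6, stood at 12.45, 7.71 and 1.90 CPM in siControl and at 40.6, 34.9 and 31.8 CPM in siControl_IL17. It stood at 2.54, 2.33 and 0.875 CPM in siIMP2 and at 8.33, 5.30 and 8.22 CPM in siIMP2_IL17. In the NA set the stimulated siIMP2 libraries (8.33 and 5.30 CPM) overlapped the unstimulated siControl libraries (12.45 and 7.71 CPM). In the RB160 set the stimulated siIMP2 library lay above the unstimulated siControl library (8.22 against 1.90 CPM). The gain was 28.4 CPM with siControl and 5.36 CPM with siIMP2 (18.9%), a difference of -23.0 ± 3.19 CPM that was close in both sets (-23.3 in NA and -22.6 in RB160) and did not pass (limma adjusted p = 0.26). Its log2 response was 2.41 ± 0.38 with siControl and 2.05 ± 0.47 with siIMP2. Among 23 measured cytokine and growth factor genes 6 rose with IL-17 on average (1.31% of all genes tested), and the median log2 difference was -0.03. The interval of the log2 difference lay within 1 for 12 of the 23, against 84.1% of all genes tested. Lif, encoding a cytokine of the IL-6 family, had log2 responses of 1.12 and 1.16. Il1a, encoding interleukin-1 alpha, went the other way in gain: its group means were 0.352 and 0.837 CPM with siControl and 1.06 and 3.25 CPM with siIMP2, a difference of 1.70 ± 0.64 CPM (limma adjusted p = 1.00).

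The log2 differences of 20 measured NF-kB regulators ran from -0.19 to 0.32. Nfkbiz stood at 38.9, 36.9 and 19.9 CPM in siControl and at 149, 148 and 94.8 CPM in siControl_IL17. It stood at 23.6, 25.8 and 18.3 CPM in siIMP2 and at 113, 113 and 102 CPM in siIMP2_IL17. The log2 response was 2.05 ± 0.12 and 2.30 ± 0.12, a difference of 0.25 ± 0.17 (95% interval -0.11 to 0.60), and the gain with siIMP2 was 87.8% of that with siControl. Nfkbia, which encodes the inhibitor IkB-alpha, had log2 responses of 0.55 and 0.58, with a difference of 0.03 ± 0.08 (95% interval -0.14 to 0.19). Bcl3, which encodes a nuclear IkB protein, started at 36.7% of its siControl level and had log2 responses of 0.87 and 1.10. Its gain with siIMP2 was 52.0% of that with siControl. Ier3, an NF-kB target that limits cell death, had log2 responses of 0.74 and 0.62. Of 20 measured NF-kB genes 6 rose on average with IL-17 and 0 fell, against 1.31% and 1.42% of all genes tested. The intervals of 18 of the 20 log2 differences lay within 1, against 84.1% of all genes, and their median was 0.01.

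Promoters of Cxcl1, Il6 and Nfkbia are printed because these NF-kB target genes rose with IL-17 on average but began at 14.7%, 26.1% and 85.2% of their siControl levels in siIMP2 cells. The windows run from 250 bases before to 50 bases after the start of the gene in RefSeq (GRCm38.p6), 5′ to 3′ on the strand of the gene, and capitals mark matches to the motifs searched. Those were 2 NF-kB forms, GGG with any 2 bases and TTTCC or GGGA with any 4 bases and CC, which can match the same bases, and the C/EBP letters TTGCNNAA. Both strands were searched. Cxcl1 lies at chr5:90890995-90891294 on the plus strand, Il6 at chr5:30012864-30013163 on the plus strand and Nfkbia at chr12:55492598-55492897 on the minus strand.
Cxcl1: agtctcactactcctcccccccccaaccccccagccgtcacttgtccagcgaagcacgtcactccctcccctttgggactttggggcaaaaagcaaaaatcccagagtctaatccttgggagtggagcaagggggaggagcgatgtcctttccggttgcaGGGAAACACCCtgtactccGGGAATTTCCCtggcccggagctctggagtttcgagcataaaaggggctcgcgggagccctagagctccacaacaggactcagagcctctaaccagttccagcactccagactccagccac
Il6: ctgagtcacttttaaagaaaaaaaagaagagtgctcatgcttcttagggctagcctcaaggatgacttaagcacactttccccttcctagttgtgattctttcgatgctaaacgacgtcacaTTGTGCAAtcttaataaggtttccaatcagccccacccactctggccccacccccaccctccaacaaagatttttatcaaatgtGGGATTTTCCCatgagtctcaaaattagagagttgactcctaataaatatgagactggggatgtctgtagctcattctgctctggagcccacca
Nfkbia: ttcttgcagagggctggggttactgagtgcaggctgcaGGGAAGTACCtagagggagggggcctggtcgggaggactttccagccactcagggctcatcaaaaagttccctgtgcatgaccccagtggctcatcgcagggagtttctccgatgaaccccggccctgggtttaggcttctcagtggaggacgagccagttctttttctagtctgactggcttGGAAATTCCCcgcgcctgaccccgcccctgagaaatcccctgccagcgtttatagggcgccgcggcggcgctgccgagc
Each window holds an NF-kB match near the start, which begins 71 bases before it in Cxcl1, 44 in Il6 and 29 in Nfkbia, and the Il6 window holds a C/EBP match that begins 128 bases before the start. Either NF-kB form is in 21.3% and the C/EBP letters are in 10.8% of the 32851 windows of that length. Windows were found for 15 of the 26 panel genes, and 9 of these genes had an NF-kB match.

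The C/EBP factors differed from each other in their values. Cebpb stood at 27.6, 25.8 and 18.1 CPM in siControl and at 32.5, 34.2 and 35.04 CPM in siControl_IL17. It stood at 24.8, 22.3 and 15.6 CPM in siIMP2 and at 26.3, 22.7 and 20.3 CPM in siIMP2_IL17. Stimulated siControl libraries lay above all other libraries, whereas siIMP2 libraries with and without IL-17 overlapped. The log2 response was 0.54 and 0.16, a difference of -0.38 ± 0.17 (edgeR unadjusted p = 0.0465, adjusted p = 1.00), and the sign was the same in NA (-0.26) and RB160 (-0.58). It was the 1 gene of the 26-gene panel with an unadjusted p below 0.05 on the log2 scale. Cebpd, for C/EBP-delta, had log2 responses of 1.18 and 1.38 and started at 32.5% of its siControl level, with a gain of 42.3%. Of 6 measured C/EBP family genes 1 rose on average, against 1.31% of all genes tested. All 6 CPM differences were below 0, as were 6979 of 13702 over all genes tested, and 0 of the 6 were called.

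Of 13 measured acute-phase genes 12 had a CPM difference below 0, as had 6979 of 13702 over all genes tested. The log2 difference was above 0 for 9 of the 13 and for 6822 of all genes, and 0 of the 13 were called on either scale. The interval of the log2 difference lay within 1 for 6 of the 13, against 84.1% of all genes tested. Lcn2, encoding the iron-chelator carrier lipocalin-2, stood at 42.8, 33.4 and 0.143 CPM in siControl and at 121, 88.9 and 36.8 CPM in siControl_IL17. It stood at 3.68, 4.93 and 0.0709 CPM in siIMP2 and at 20.5, 14.6 and 12.9 CPM in siIMP2_IL17. The unstimulated RB160 library of each siRNA lay far below the NA libraries, and the SE of the log2 difference was 1.03. Its gain with siIMP2 was 23.1% of the gain with siControl, a difference of -43.5 ± 18.6 CPM (limma adjusted p = 1.00). Steap4, a metalloreductase gene, reached 6.39 CPM in the RB160 library of siControl_IL17 and 0.319 and 0.321 CPM in its NA libraries. In siIMP2_IL17 it stood at 0.751 CPM in the RB160 library and at 0.0304 and 0.0314 CPM in the NA libraries, so its gain rests on the RB160 set. Serpina3g, a serine protease inhibitor gene with near-identical relatives whose reads could be shared, had a difference of gains of -95.9 CPM in RB160 and -0.348 CPM in NA. Of the 13 genes 4 rose on average with IL-17 (C3, Lcn2, Ptx3 and Serpina3g), against 1.31% of all genes tested.

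Among metabolic targets, Slc7a2, a transporter of cationic amino acids, stood at 60.1, 50.02 and 62.3 CPM in siControl and at 105, 108 and 143 CPM in siControl_IL17. It stood at 23.7, 22.3 and 38.6 CPM in siIMP2 and at 51.4, 46.9 and 95.3 CPM in siIMP2_IL17. In the NA set the stimulated siIMP2 libraries lay near the unstimulated siControl libraries, and in the RB160 set above them. The log2 response was 1.03 ± 0.13 and 1.18 ± 0.13, with a difference of 0.15 ± 0.18, and the gain with siIMP2 was 59.5% of that with siControl. Nos2, for inducible nitric oxide synthase, had 7 and 291 counts over the siControl and siControl_IL17 libraries and 0 and 117 over the siIMP2 and siIMP2_IL17 libraries, a 38.0-fold difference with siControl and at least 39.3-fold with siIMP2. Ptgs2, for cyclooxygenase-2, had a difference of gains of opposite sign in the sets, -167 CPM in NA and 204 CPM in RB160, and log2 responses of 0.81 and 0.59.

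Among regulators of inflammatory mRNA, Zc3h12a, for the endonuclease Regnase-1 that degrades inflammatory transcripts, stood at 16.4, 15.1 and 5.68 CPM in siControl and at 53.0, 49.2 and 35.9 CPM in siControl_IL17. It stood at 18.3, 16.1 and 7.97 CPM in siIMP2 and at 54.2, 58.2 and 49.6 CPM in siIMP2_IL17. The log2 response was 1.97 ± 0.20 and 2.02 ± 0.20, a difference of 0.05 ± 0.27, and its gain with siIMP2 was 118% of that with siControl. All 18 measured genes of that list had intervals within 1, against 84.1% of all genes tested. Of the 18, 2 rose on average, Zc3h12a and Zfp36l1, against 1.31% of all genes tested. The 16 measured receptor and adaptor genes likewise all had intervals within 1, with log2 differences from -0.07 to 0.17. Of the 16, 1 rose on average, the kinase gene Ikbke, against the same 1.31%. Il17ra stood between 27.5 and 31.7 CPM in the siControl groups and between 31.0 and 36.4 CPM in the siIMP2 groups, with a log2 difference of -0.03 ± 0.09. Tnfaip3, encoding the feedback inhibitor A20, had log2 responses of 0.18 and 0.27.

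**Figure D3:**
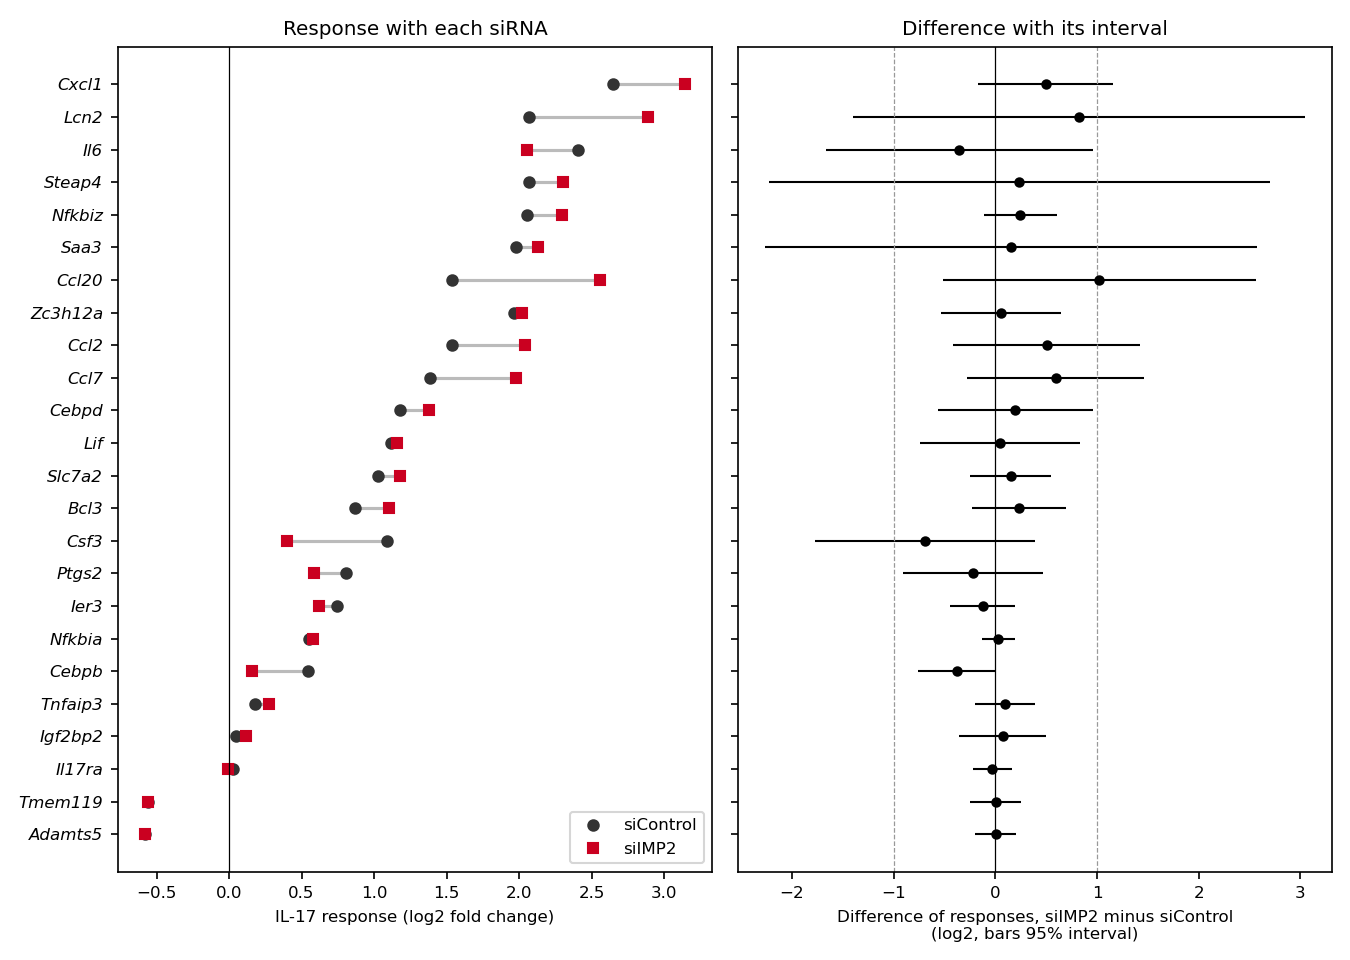
Left, log2 IL-17 response with siControl (circles) and siIMP2 (squares) for the 24 panel genes with counts in every group, ordered by the average response. Right, the difference of the responses with its 95% interval and dashed lines at -1 and 1. The difference was above 0 for 18 of the 24, and 15 of all 26 panel genes had an interval within 1.

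The 194 genes that fell with IL-17 on average had log2 differences from -1.2004 to 1.75, with quartiles of -0.05 and 0.07. Of these genes 8 had an unadjusted p below 0.05 and 0 were called. Adamts18, chosen after its values were seen, had log2 responses of -2.42 with siControl and -0.66 with siIMP2, and Igtp, chosen likewise, of -0.36 and -1.56. These 2 genes set the ends of the range, but their CPM differences were only 0.175 and -0.138. Adamts5, for an aggrecan-cleaving protease, stood at 29.8, 28.9 and 66.2 CPM in siControl and at 19.97, 20.7 and 41.4 CPM in siControl_IL17. It stood at 21.6, 22.3 and 54.2 CPM in siIMP2 and at 15.3, 14.9 and 34.4 CPM in siIMP2_IL17. Within each set every stimulated library lay below the unstimulated libraries of the same siRNA. The log2 response was -0.58 ± 0.06 with siControl and -0.58 ± 0.06 with siIMP2, and the log2 difference had a 95% interval of -0.20 to 0.20. Tmem119, for a membrane protein of osteoblast-lineage cells, had log2 responses of -0.56 and -0.56 although it started at 47.2% of its siControl level in siIMP2. Of 32 measured extracellular matrix genes 1 rose (Dcn) and 2 fell (Col11a1 and Col1a2) on average, against 1.31% and 1.42% of all genes tested, and the median log2 difference was -0.02. Of 19 contractile genes 3 fell (Cnn1, Myl9 and Vcl), against the same 1.42%, with a median of 0.05. Immediate early, interferon-stimulated, cell cycle, and IMP and m6A genes had 0 members called for the average IL-17 effect, and their median log2 differences lay between -0.07 and 0.09.

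**Figure D4:**
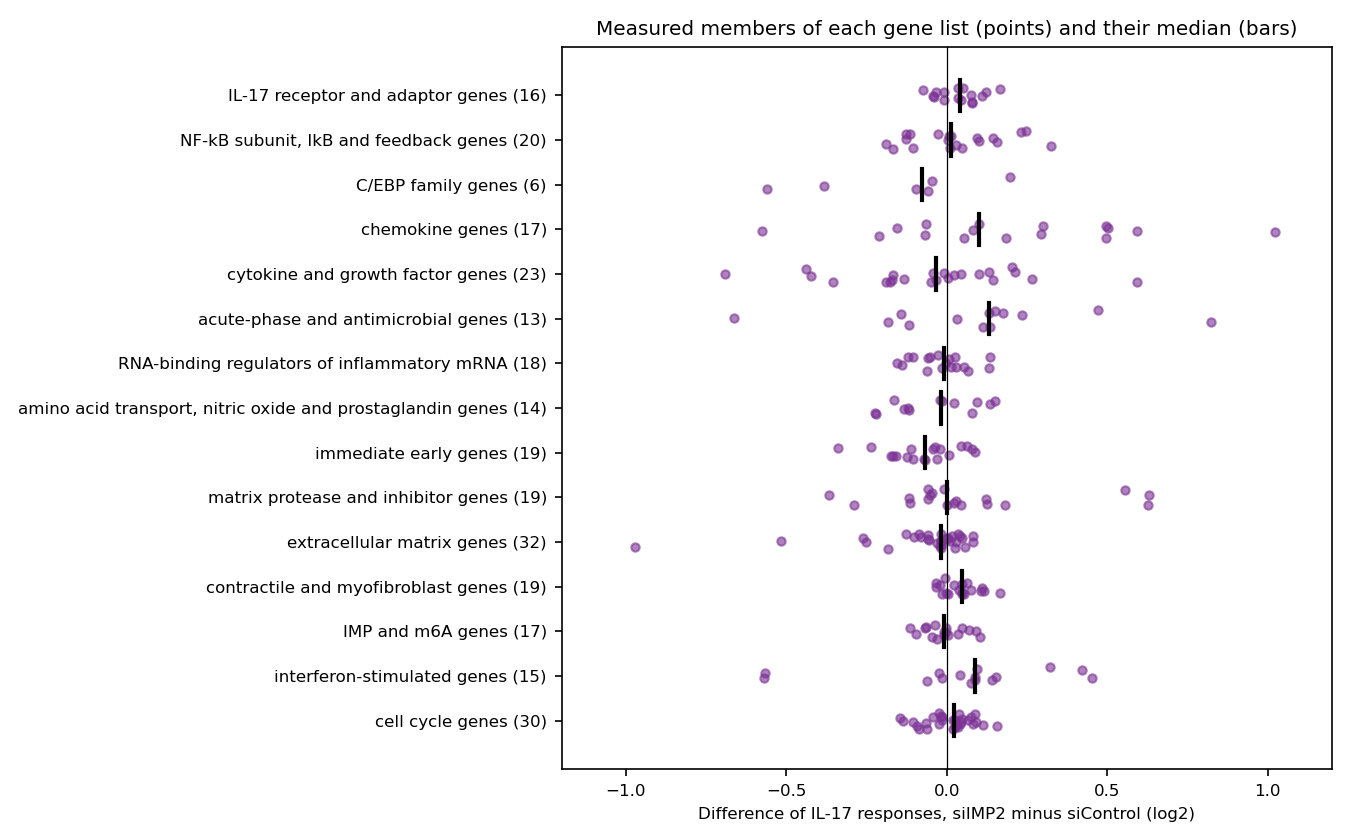
Log2 difference of the IL-17 responses (siIMP2 minus siControl) for the measured members of 15 gene lists, 1 point per gene, with the median as a bar and the number measured in parentheses. Cxcl5 and Nos2, which had 0 counts in a group, are not drawn as points and enter the medians at their bounds. The medians lie close to 0, and chemokine and acute-phase genes spread more widely than receptor, m6A or cell cycle genes. Their differences were also measured less precisely. The interval lay within 1 on either side of 0 for 5 of 17 chemokine and 6 of 13 acute-phase genes. It did so for all 16 receptor, 17 IMP and m6A and 30 cell cycle genes.

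Across all IL-17-responsive genes the median log2 responses with the siRNAs lay close together. By the average IL-17 effect, a contrast that gives both siRNAs equal weight, 179 genes (1.31%) rose and 194 (1.42%) fell, 373 (2.72%) in all. Among the 179 the median log2 response was 0.44 with siControl and 0.46 with siIMP2, with a median difference of 0.04, or of 0.03 with Cxcl5 and Nos2 at their bounds. The sign of this median rested on single libraries: it was -0.06 without siIMP2_IL17 replicate 3, -0.03 without siControl replicate 1 and 0.10 without siControl replicate 3. Among the 194 the median response was -0.33 and -0.31. The interval of the difference lay within 1 for 148 of the 179 and for 185 of the 194, against 84.1% of all genes tested. Summed over the 179 genes, the gain was 4928 CPM with siControl and 4378 CPM with siIMP2. These sums join classes that ran apart. For the 88 genes called lower with siIMP2 on average the sums were 2463 and 1538 CPM. For the 43 called higher they were 1500 and 1906 CPM, and for the 48 without a called siRNA effect 965 and 934 CPM. The median starting level of the 179 genes in siIMP2 was 85.5% of that in siControl, and the median gain was 89.7%, with quartiles of 62.2% and 118%. Within the sets the median gain was 82.0% in NA and 100.3% in RB160. The gain was smaller with siIMP2 for 115 of the 179. Over all genes tested, the change with IL-17 was smaller in size with siIMP2 for 7989 of 13702. At an equal fold the gain percent equals the starting percent by construction. The count of responsive genes depended on the libraries: it was 233 without siIMP2 replicate 2, 244 without siControl replicate 3, 198 without siIMP2 replicate 3 and 233 without siIMP2_IL17 replicate 3, against 373 with all.

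**Figure D5:**
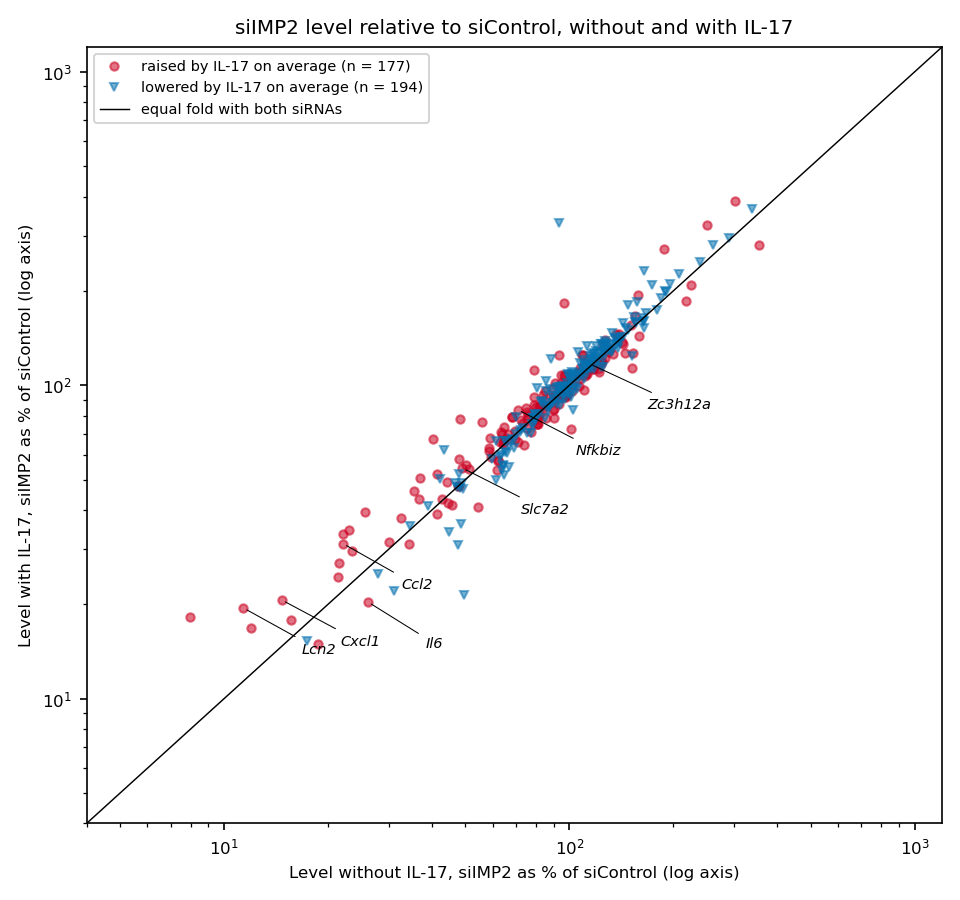
Level in siIMP2 cells as a percent of siControl cells without IL-17 (x) and with IL-17 (y), both on log axes, for 177 genes raised (circles) and 194 lowered (triangles) by IL-17 on average; 2 raised genes with 0 counts in siIMP2 are left out. On the diagonal the fold is equal with both siRNAs, and most genes lie along it, with Cxcl1, Lcn2 and Ccl2 above it and Il6 below it.

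Outside the known targets, the genes of smallest p for the log2 difference had an expression level of at least 1 mean log2 CPM and the same sign in both sets by the rule that chose them, so their values describe the edge of the distribution and did not pass. A4galt, for a glycosyltransferase that makes the glycolipid Gb3, stood at 5.52, 4.87 and 7.40 CPM in siControl and at 9.53, 9.49 and 14.8 CPM in siControl_IL17. It stood at 1.35, 1.11 and 2.10 CPM in siIMP2 and at 3.19, 3.17 and 6.98 CPM in siIMP2_IL17. It rose with IL-17 on average, with log2 responses of 0.92 and 1.52 and a difference of 0.60 ± 0.20 (edgeR unadjusted p = 0.00997, adjusted p = 1.00), while its gain with siIMP2 was 54.6% of that with siControl. Prickle1, for a planar cell polarity protein, had log2 responses of 0.05 and -0.47, a difference of -0.52 ± 0.15 (edgeR unadjusted p = 0.0041, adjusted p = 1.00). Scube3, for a secreted signalling protein, had responses of -0.23 and 0.43, a difference of 0.66 ± 0.21. C1qtnf1, for an adipokine, fell with IL-17 on average and had responses of -0.22 and -0.60, a difference of -0.38 ± 0.12. From the protease and adipocyte lists rather than by that rule came Mmp9 and Pparg (edgeR unadjusted p = 0.043 and 0.0216). Mmp9, for a gelatinase, rose on average with responses of 0.30 and 0.86. Pparg, for the regulator of fat cell formation, fell on average with responses of -0.45 and -1.02. Pparg was 1 of 5 measured adipocyte markers, all 5 of which had log2 differences below 0, as had 6880 of 13702 over all genes tested. The interval lay within 1 for 0 of the 5, and that list stood at different levels between the title sets as given above. For the CPM difference Igsf10, for an immunoglobulin superfamily protein, lost less with siIMP2, with group means of 8.62 and 5.97 CPM with siControl and 3.63 and 3.01 CPM with siIMP2, a difference of 2.02 ± 0.30 CPM (limma adjusted p = 0.26).

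Reads in genes but outside exons gave a readout that the comparison had not used. For 12463 genes with enough such reads 0 had a called log2 difference of the responses by edgeR's quasi-likelihood test, and 375 (3.01%) had an unadjusted p below 0.05. Over the average of both siRNAs 73 genes (0.586%) rose and 43 (0.345%) fell in these reads. Cxcl1 had 492 and 2115 such reads over the siControl and siControl_IL17 libraries and 98 and 389 over the siIMP2 and siIMP2_IL17 libraries. Its log2 response in them was 1.58 with siControl and 1.78 with siIMP2, a difference of 0.20 ± 0.27, so the lower start with siIMP2 was present there too. Ccl2 had responses of 1.13 and 1.79 (difference 0.66 ± 0.30, edgeR adjusted p = 1.00) and Il6 of 2.31 and 2.23. Zc3h12a had 0.68 and 0.69 outside exons, beside 1.97 and 2.02 in exons. Nfkbiz had 0.09 and 0.13 outside exons and did not pass there (edgeR adjusted p = 0.767 for the average), beside 2.05 and 2.30 in exons.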

How the data were processed

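RNA was extracted with a column kit and sequenced as standard Illumina libraries, per the labels' protocols. The authors deposited integer read counts for each gene and library, as exon-level values, total reads and uniquely mapped reads. Read pairs had been trimmed, per the file headers. Per the submitters' processing notes the genome was mm10. Which aligner and counter were used, and whether strand was, is not given in the sources used here, so counts of overlapping, antisense and paralogous genes are uncertain. The deposited log2 fold changes and false-discovery-rate p-values are the authors' own comparisons, whose headers name the control siRNA groups Mock. The members, panel and gene lists were chosen with earlier results of these data known.

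The model in edgeR 4.0.16 (R 4.3.3) had terms for 4 groups and title set, TMM factors, the default filterByExpr filter and the quasi-likelihood test. The contrast was (siIMP2_IL17 - siIMP2) - (siControl_IL17 - siControl), adjusted over 13702 genes at 0.05. An SE is the estimate divided by the root of its F statistic. CPM, scaled by TMM, were fitted with limma 3.58.1 with a variance trend in the same model. Reads outside exons are total minus exon-level counts. Within-set values come from 8 group-by-set means. No replicate pair matched within sampling noise (chi-square per degree of freedom 9.11 to 233). Named genes were a panel of 26, the 8 of smallest p per direction for both differences and for the average IL-17 effect (same sign in both sets, mean log2 CPM of at least 1, an established symbol), and up to 3 members per list. Members named because few of a list moved were chosen after their values were seen. Alternatives included DESeq2 1.42.0, limma-voom, other factors and filters, and each library left out. The method was tested on simulated data. Python 3.11.15, pandas 2.3.3 and matplotlib 3.10.9 made tables and figures.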

Additional observations from a re-analysis of the deposited data

Results flagged for a closer look

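The difference of the IL-17 gains of Cxcl1 was -134 CPM (siIMP2 minus siControl, limma adjusted p = 0.0053). It was singled out because the effect of IL-17 in CPM differed between the siRNAs by a test of the difference itself. The log2 difference of the same gene was 0.50 and did not pass (edgeR adjusted p = 1.00).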

How the results depend on the processing

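No paired analysis was possible because the labels tie no library of 1 group to a library of another beyond the title set. The number of genes with a called log2 difference of the responses was 0 under all 24 alternatives run, which included DESeq2, limma-voom, each library left out and the fit of 8 group-by-set means. Among them, the added demand of a log2 difference of at least 1 could only give 0, because it takes a subset of the main calls. The number with a called CPM difference was 1, and it was 0 with CPM by library total alone, without limma's trend and with weights for the count variance, 2 with the NA libraries alone, 22 (15 lower and 7 higher with siIMP2) with 8 group-by-set means, and from 0 to 1 with each library left out. The count called for the average IL-17 effect was 373, and it was 654 with DESeq2 (365 shared), 4 without the title-set term, 199 with the NA libraries alone (155 shared), and from 198 to 490 with each library left out. The median log2 difference of the genes lowered by IL-17 ran from -0.03 to 0.05 with each library left out. The fit of 8 means and the alternatives for the average effect were added after seeing the data, and the fit of 8 means takes its spread from the NA libraries alone. Of 112 named genes 72 kept the sign of the log2 difference and 76 that of the CPM difference under every alternative that gave a value. The others changed sign without a call on either side. Depth limits genes of low abundance: 6 tested genes had 0 counts in a group.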

Other observations

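In the fit of 8 group-by-set means, which was added after seeing the data, further genes had called differences of IL-17 gains in CPM. The genes below were chosen after their values were seen. Those with smaller gains with siIMP2 included Ccl2 (-115 CPM), Ccl7 (-60.6 CPM), Il6 (-23.0 CPM) and Ptx3 (-13.4 CPM), and the serine protease inhibitor genes Serpina3g (-32.2 CPM), Serpina3n (-9.19 CPM), Serpina3f (-2.75 CPM) and Serpina3i (-1.24 CPM), whose reads could be shared among relatives. Matrix proteoglycan genes were called in both directions: Ogn (54.4 CPM) and Aspn (15.7 CPM) above 0, Dcn (-10.5 CPM) and Lum (-1.35 CPM) below. That fit takes its spread from the NA libraries alone, since RB160 has 1 library per group. Its calls therefore do not measure the spread within RB160. The difference of Serpina3g lay almost wholly in RB160, as given above. In the main fit none of the genes named here was called. The log2 difference of the responses differed between the title sets for 1 gene of 13702, Gm14434 (0.0073%), by edgeR's quasi-likelihood test.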
